A study of Mus musculus with 4 samples.

Results

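A list of 10 genes was read in stromal cells of the adult mouse intestine: *Plbd1*, *C1qtnf7*, *Plcxd3*, *Sertm1*, *Sntg1*, *Pde2a*, *Marc1*, *Shisa2*, *Shisa3* and *Egflam*. They are 10 of the 28692 gene rows of the data and were listed as near exclusive to small intestinal fibroblasts (FB), so their difference between small intestine and colon in FB is the reason for their choice and is described here with no test. The comparison that the list leaves free is whether the same genes differ between the intestines in smooth muscle cells (SMC), pericytes and endothelial cells. All 10 are annotated as protein coding genes.

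Intestinal FB lie beneath the epithelium, where they lay down matrix and send secreted signals that help to keep stem cells at the crypt base and mature cells nearer the lumen. FB with high PDGFRα sit directly under the epithelium and make BMP ligands, while CD81+ FB lie deeper and supply BMP antagonists and Wnt cofactors. Small intestine carries villi and colon does not, and stromal cells of both keep a positional identity written in their Hox genes.

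The listed genes have diverse products. Outside the cell act *C1qtnf7*, a secreted protein of the C1q and TNF related family, and *Egflam* (pikachurin), an extracellular matrix protein that binds dystroglycan. *Shisa2* and *Shisa3* encode proteins of the endoplasmic reticulum that hold back Frizzled and FGF receptors and so dampen Wnt and FGF signaling. Enzymes are encoded by *Plbd1* (a phospholipase B domain protein of lysosomes), *Plcxd3* (a protein with a phospholipase C catalytic domain), *Pde2a* (a phosphodiesterase that breaks down cAMP and cGMP) and *Marc1* (a reductase of the outer mitochondrial membrane). *Sntg1* encodes a syntrophin, an adaptor of the dystrophin complex, and *Sertm1* a small serine-rich transmembrane protein.

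The cells came from the lamina propria of small intestine and colon of untreated female C57BL6/Nrj mice aged 8 to 10 weeks, after the muscularis externa had been removed. They had been sorted as live CD45-, Ter119-, CD31-, BP3-, EpCAM-, L1CAM- and Itgb1+ cells in 2 independent experiments with 3 mice each. Animals were pooled, so no value is that of 1 mouse. Each intestine gave 2 droplet libraries, called replicates 1 and 2. Both 3′ and 5′ kits were in use, and the sources used here do not say which library had which. Paired values below are those of replicates 1 and 2 in that order.

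Each value is a count of unique molecular identifiers (UMIs), which mark single captured transcripts. The 2 libraries of small intestine held 14341443 and 45640122 UMIs, and those of colon 22076000 and 52269372. After filters and removal of doublets, 1828 and 14350 small intestinal and 2399 and 12108 colonic cells remained, with medians of 6965, 2734.5, 8810 and 3878 UMIs. The most cell barcodes that any pair of libraries shared was 69, between the replicate 2 libraries. The libraries differed in what had passed the sort: endothelial cells were 351 of the cells of small intestine replicate 1 (19.2%) but 1 cell of replicate 2.

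A cell was put in a class by how many genes of fixed marker lists it held at 1 UMI or more, and no listed gene entered a gate. FB needed 4 of 6 FB markers (such as *Pdgfra* and *Dcn*). Among these, PDGFRα-high FB needed 3 of 7 markers (such as *F3* and *Bmp7*) and CD81+ FB 5 of 7 (such as *Cd81* and *Ackr4*), and all others are called other FB. SMC needed 4 of 7 markers (such as *Myh11* and *Actg2*), while pericytes and endothelial cells needed 3, each with more UMIs of their own markers than of FB markers. FB of small intestine numbered 1220 and 13650 cells, and those of colon 1743 and 10369. SMC numbered 60 and 102, and 296 and 798. Pericytes numbered 51 and 16, and 68 and 52. Endothelial cells numbered 351 and 1, and 237 and 23. UMIs were summed over the cells of a class in a library, and a level is given as UMIs per 1000000 UMIs of that sum (CPM).

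The label holds to very different degrees. In FB of all classes, each of the 10 genes had a higher level in both small intestinal libraries than in either colonic one, as did 15.7% of all 13944 genes tested there. Since the list was chosen on this contrast, nothing is read from that count. The ratio of the mean levels ran from 2.11 for *C1qtnf7* and 2.65 for *Egflam* over 3.81 for *Pde2a* and 5.52 for *Marc1* to 29.5 for *Plbd1* and 61.7 for *Sertm1*. *C1qtnf7* and *Egflam* were therefore well detected in colonic FB, and "near exclusive" does not describe them.

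*Sertm1* came closest to the label. It had 7.91 and 17.6 CPM in small intestinal FB against 0.179 and 0.235 CPM in colonic FB, the latter resting on 3 and 10 UMIs. *Sntg1* had 14.5 and 19.3 CPM against 1.61 and 0.705 CPM. The colonic levels of *Sntg1* rested on 27 and 30 UMIs, so both genes were seen there in few transcripts.

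*Shisa3* had 113 and 93.0 CPM in small intestinal FB and 11.1 and 8.42 CPM in colonic FB. *Shisa2* had 23.2 and 23.1 CPM against 3.28 and 1.53 CPM. For both signaling inhibitors the libraries of an intestine lay close together and far from those of the other. *C1qtnf7* by contrast had 55.8 and 45.6 CPM in small intestine, with still 21.4 and 26.6 CPM in colon. *Egflam* had 53.9 and 50.4 CPM against 24.1 and 15.2 CPM.

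The replicates of small intestine lay far apart for *Plbd1*, whose mean was 16.2 ± 13.6 CPM (SD, n = 2) in small intestinal FB and 0.551 ± 0.147 CPM (SD, n = 2) in colonic FB. It had 25.8 and 6.61 CPM in the small intestinal libraries. PDGFRα-high FB, which held most of this gene (below), were 170 of the 1220 FB of replicate 1 and 834 of the 13650 FB of replicate 2.

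**Figure D1:**
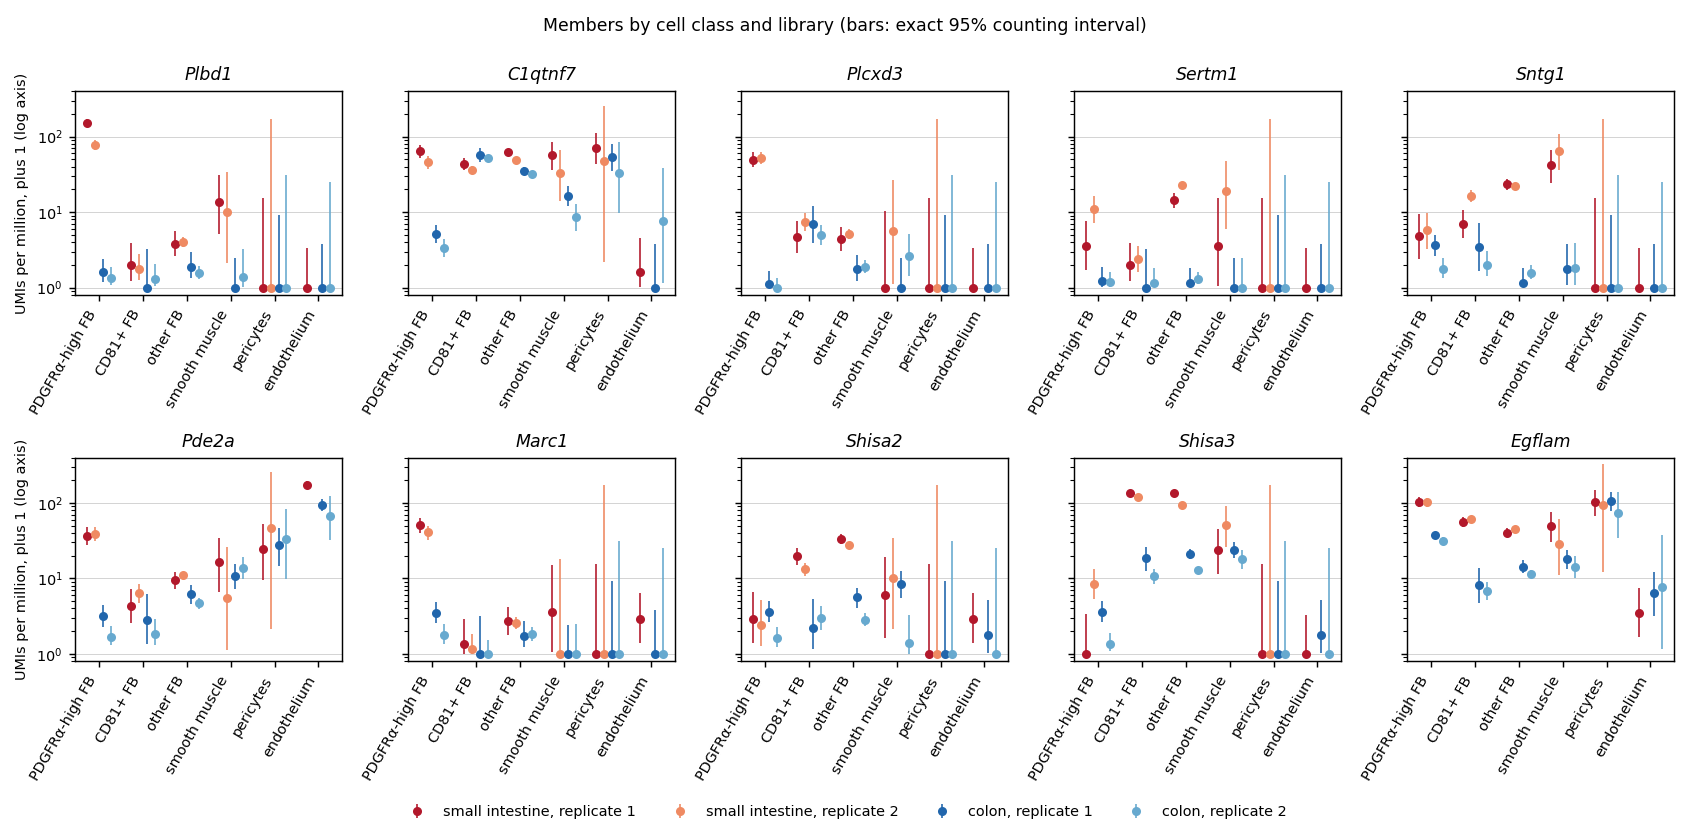
Level of each of the 10 genes (CPM plus 1, log axis) in 6 cell classes, with 1 point per library and the exact 95% counting interval as a bar. *Plbd1*, *Plcxd3* and *Marc1* stand high in PDGFRα-high FB of small intestine alone, *Sntg1* stays high in small intestinal SMC (40.8 and 64.0 CPM against 0.785 and 0.804 CPM), and pericytes show *C1qtnf7*, *Pde2a* and *Egflam* at overlapping levels.

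Divided by FB class, the genes fell into different groups. Among FB, *Plbd1*, *Plcxd3* and *Marc1*, all enzymes or enzyme-like proteins, were found in the PDGFRα-high class of small intestine and little in the other classes. Outside FB, immune cells of small intestine also held *Plbd1* (below). *Plbd1* had 151 and 76.0 CPM in PDGFRα-high FB of small intestine against 0.597 and 0.350 CPM in the same class of colon. *Plcxd3* had 48.5 and 51.0 CPM, and a single UMI in the same class of colon (0.119 and 0 CPM). *Marc1* had 49.7 and 39.7 CPM against 2.51 and 0.788 CPM.

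On the summed counts these levels made *Plbd1* 238 times as high in small intestine (95% counting interval 124 to 523), *Marc1* 29.0 times (19.6 to 44.4) and *Plcxd3* 989 times, with an interval of 175 to 39254 since it rests on 1 colonic UMI. In other FB the same genes were low in both intestines: *Plbd1* had 2.83 and 3.01 CPM against 0.889 and 0.538 CPM. *Marc1* had 1.70 and 1.56 CPM against 0.741 and 0.828 CPM there. *Plcxd3* differed from the other two in that its colonic UMIs came mainly from CD81+ FB, where it had 6.01 and 4.02 CPM in colon and 3.68 and 6.38 CPM in small intestine, ranges that overlap.

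The upstream sequences of these 3 genes are shown because their levels moved together most closely over classes and libraries. Each line gives the 250 bases before the transcript start from RefSeq (GRCm38.p6), 5′ to 3′ on the strand of the gene, in lower case with matches to a searched motif in capitals. *Plbd1* lies at chr6:136661894-136662143 (minus strand), *Plcxd3* at chr15:4375241-4375490 (plus strand) and *Marc1*, listed there as *Mtarc1*, at chr1:184811301-184811550 (minus strand).
Plbd1: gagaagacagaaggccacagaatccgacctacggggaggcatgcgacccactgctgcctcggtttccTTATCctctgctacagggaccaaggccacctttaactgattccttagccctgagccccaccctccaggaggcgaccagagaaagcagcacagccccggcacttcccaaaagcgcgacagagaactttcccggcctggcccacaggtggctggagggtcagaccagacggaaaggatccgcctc
Plcxd3: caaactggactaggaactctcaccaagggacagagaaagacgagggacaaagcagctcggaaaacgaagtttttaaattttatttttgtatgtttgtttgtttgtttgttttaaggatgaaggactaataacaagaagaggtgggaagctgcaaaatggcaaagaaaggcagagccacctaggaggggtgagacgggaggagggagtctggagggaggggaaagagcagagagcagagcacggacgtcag
Marc1: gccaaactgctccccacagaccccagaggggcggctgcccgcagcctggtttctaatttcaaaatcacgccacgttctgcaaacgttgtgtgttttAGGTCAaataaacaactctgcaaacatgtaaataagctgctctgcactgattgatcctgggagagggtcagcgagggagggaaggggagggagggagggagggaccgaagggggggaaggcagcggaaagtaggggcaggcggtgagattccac
Capitals mark GATAA on either strand in *Plbd1* (so also TTATC) and AGGTCA in *Marc1*, and *Plcxd3* held neither. The 9 of the 10 genes with a promoter entry had 14 promoters. GATAA stood in 4 of these, from 3 genes (22.6% of all 32851 promoters of this length), and AGGTCA in 3, from 2 genes (14.0% of all). TGACTCA stood in 2, both of 1 gene (4.46% of all), while TAATTA (4.84%) and TTTATNG (9.81%) stood in none. These are matches of letters on both strands and no evidence of binding. The GC content was 60.8% for *Plbd1*, 46.8% for *Plcxd3* and 56.4% for *Marc1*, with a median of 52.4% over all promoters.

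*Pde2a*, *C1qtnf7* and *Egflam* were found in PDGFRα-high FB and in other classes as well. In PDGFRα-high FB *Pde2a* had 35.7 and 38.2 CPM in small intestine, with 2.15 and 0.700 CPM in colon, 28.3 times as high (18.5 to 44.9). *C1qtnf7* had 63.8 and 44.8 CPM there against 4.18 and 2.36 CPM in colon, 16.9 times as high (12.6 to 22.9). *Egflam* had 101 and 101 CPM against 36.2 and 30.5 CPM, 3.07 times as high.

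In CD81+ FB the order of the intestines turned for *C1qtnf7*. It had 42.5 and 35.4 CPM in small intestine, with 56.5 and 50.4 CPM in colon. Both colonic libraries thus stood above both small intestinal ones, as for 25.7% of all 11262 genes tested in that class. The fitted log2 fold change, colon against small intestine, was small at 0.33 (SE 0.26). *Egflam* kept its order, with 54.5 and 60.5 CPM against 7.21 and 5.89 CPM. In other FB *C1qtnf7* had 60.9 and 47.9 CPM against 34.2 and 31.3 CPM. The small ratio of *C1qtnf7* over all FB thus averages classes that went in different directions, and whether the classes differ was not tested.

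*Shisa3*, *Shisa2* and *Sntg1* were lower in PDGFRα-high FB of small intestine than in the other FB classes there. *Shisa3* had 0 and 7.55 CPM in PDGFRα-high FB of small intestine and 2.63 and 0.350 CPM in colon, which overlap. In CD81+ FB it had 135 and 118 CPM against 17.4 and 9.63 CPM, and in other FB 134 and 93.6 CPM against 20.2 and 11.9 CPM. *Shisa2* followed it, with 18.7 and 12.2 CPM against 1.20 and 2.01 CPM in CD81+ FB. In other FB *Shisa2* had 32.0 and 26.9 CPM against 4.59 and 1.82 CPM.

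In small intestine *Sntg1* and *Sertm1* were highest, among FB classes, in other FB. *Sntg1* had 22.4 and 21.2 CPM in other FB of small intestine and 0.148 and 0.580 CPM in those of colon. *Sertm1* had 13.4 and 21.7 CPM against 0.148 and 0.290 CPM. It was present in PDGFRα-high FB of small intestine as well, at 2.55 and 9.91 CPM against 0.239 and 0.175 CPM, and had 1.00 and 1.37 CPM in small intestinal CD81+ FB. In PDGFRα-high FB *Sntg1* had no more than 3.83 and 4.72 CPM in small intestine, with 2.63 and 0.788 CPM in colon. It had 2.40 and 1.01 CPM in colonic CD81+ FB, so that other FB held its lowest level among FB classes of colon.

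By class, 8 of the 10 genes lay higher in both small intestinal libraries of PDGFRα-high FB (25.9% of all 11805 genes tested) and *Shisa2* and *Shisa3* overlapped. In CD81+ FB 8 did, among them 5 of the 7 listed genes that passed the filter on low counts (13.7% of all 11262 genes tested). There *C1qtnf7* was higher in both colonic libraries (25.7% of all) and *Plcxd3* overlapped. In other FB all 10 did (16.9% of all 13019). These counts too come from the contrast that chose the list.

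Clusters gave a finer view and left the listed genes out of the genes they were computed from. Over 13 clusters of small intestine, *Sertm1* was concentrated in cluster 3, an FB cluster led by *Mmp10* and *Agt*, at 85.4 CPM, and in cluster 11, an unnamed cluster of 69 cells led by *Itga8* and *P2rx1*, at 309 CPM. *Sntg1* had 37.2 and 44.8 CPM in these clusters and 44.2 CPM in the SMC cluster. *Shisa2* and *Shisa3* were highest in small intestinal cluster 0, an FB cluster led by *Vwc2* and *Epha5*, at 39.9 and 144 CPM. In the PDGFRα-high cluster *Shisa2* had 0.219 CPM and *Shisa3* 3.95 CPM.

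**Figure D2:**
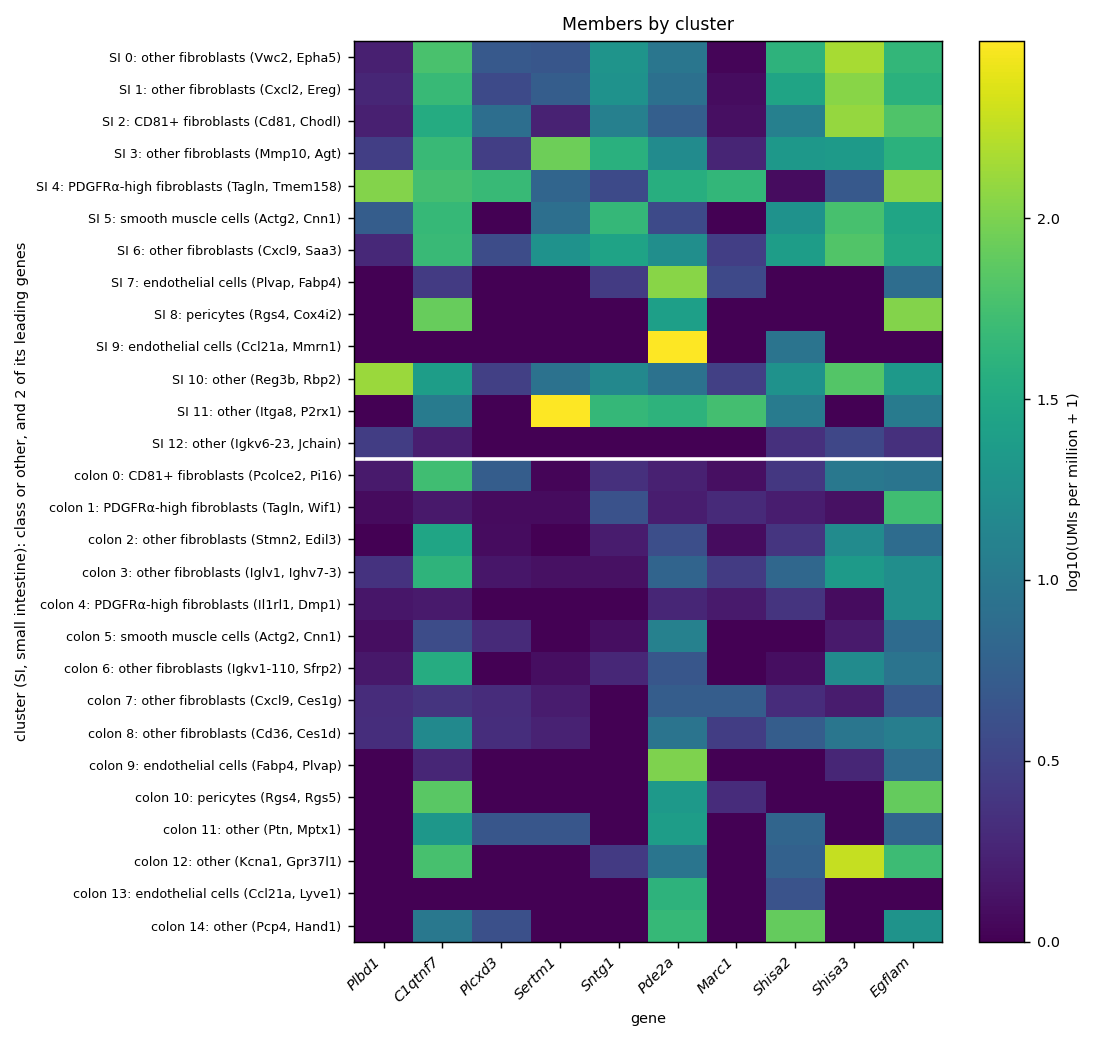
Level of each gene (log10 of CPM plus 1, color) in the 13 clusters of small intestine and the 15 clusters of colon, each labeled with its class (other where it is none of the 6 classes) and 2 of its leading genes. In small intestine *Plbd1*, *Plcxd3* and *Marc1* are bright in the PDGFRα-high cluster, *Sertm1* in clusters 3 and 11 and *Pde2a* in the endothelial clusters, and *Plbd1* also in cluster 10. The brighter colonic fields are those of *C1qtnf7* and *Egflam*, *Pde2a* in endothelium, *Shisa3* in cluster 12 and *Shisa2* in cluster 14.

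Per cell the listed genes were sparse, so cells were thinned to 2000 UMIs each before shares were compared, and shallower cells were left out (66 and 2882 FB of small intestine, 46 and 946 of colon). *Shisa3* then had a UMI in 18.5% and 15.6% of small intestinal FB and in 1.94% and 1.72% of colonic FB. *Plbd1* had one in 21.0% and 12.6% of PDGFRα-high FB of small intestine and in 0% and 0.12% of those of colon. In endothelial cells of small intestine replicate 1, a class that should lack FB genes, both had a UMI in 0 of 314 cells (medians of 4451 UMIs there and 8425.5 in FB before thinning).

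No listed gene at all was seen in 57.1% and 59.3% of small intestinal FB and in 87.2% and 89.1% of colonic FB. At least 2 of the 10 were seen in 9.97% and 7.92% of small intestinal and 0.943% and 0.456% of colonic FB. PDGFRα-high FB of small intestine had the largest share of cells with 2 or more, at 19.2% and 12.8%, against 0.536% and 0.0398% in colon. 

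**Figure D3:**
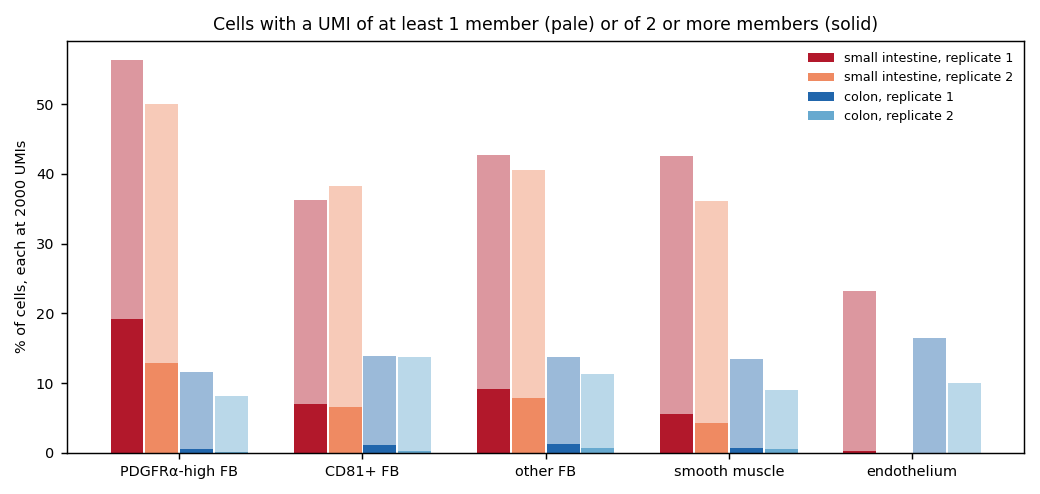
Percent of cells, each thinned to 2000 UMIs, that held a UMI of at least 1 of the 10 genes (pale bars) or of 2 or more (solid bars), by class and library. Bars of both small intestinal libraries rise above those of both colonic libraries in the FB classes and SMC. Pericytes, of which 1 library had too few cells at this depth, and the single endothelial cell of small intestine replicate 2 are not drawn.

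Outside FB the small intestinal pattern was found in SMC. By the gate 3 of the 6 listed genes tested lay higher in both small intestinal libraries (17.9% of all 9820 genes), and *Sntg1* alone was called. *Sntg1* had 40.8 and 64.0 CPM in SMC of small intestine and 0.785 and 0.804 CPM in those of colon, from 16 and 14 UMIs against 2 and 2 UMIs. Both small intestinal libraries lay far above both colonic ones although the colonic sums were deeper (392349 and 218736 UMIs against 2548900 and 2487014). The quasi-likelihood test of edgeR over all 9820 genes of SMC gave a log2 fold change of -5.82 (SE 0.58) for colon against small intestine, with a Benjamini-Hochberg adjusted p of 0.0252. The ratio of summed counts was 61.8 (21.8 to 241).

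Of the 10 genes, 6 had enough UMIs in SMC to be tested, and *Sntg1* was the 1 called. A call required an adjusted p under 0.05 with a log2 fold change larger than 1.5 in size, and 0.122% of all 9820 genes met this as higher in small intestine. The call was lost without colon replicate 1 (adjusted p 0.0678 by edgeR, log2 fold change -5.75) and without colon replicate 2 (0.0736, -5.80). It was kept without small intestine replicate 1 (adjusted p 0.0271 by edgeR) and without small intestine replicate 2 (0.0405). The p-values measure the spread between these libraries of pooled mice.

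*Sntg1* UMIs came from 13 of the 60 and 14 of the 102 small intestinal SMC. After thinning 9.26% and 10.6% of these cells had a UMI, against 0% and 0.287% in colon, and no endothelial or plasma cell had one. FB markers were counted beside this, since FB RNA can reach droplets of other cells. SMC with a *Sntg1* UMI held a median of 35 FB marker UMIs in replicate 1 and 9 in replicate 2, and those without one 11 and 7. The level of *Sntg1* in small intestinal SMC was 281% and 331% of its level in FB of the same library, while 7 genes fixed to read FB RNA in other classes stood at medians of 6.93% and 17.2% (ranges 0.814% to 105% and 3.18% to 110%). The gene at the top of both ranges was *Adamdec1*, a metalloprotease of gut stroma.

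The other matrix and signaling genes did not pass this test in SMC. *C1qtnf7* had 56.1 and 32.0 CPM in small intestinal SMC and 15.3 and 7.64 CPM in colonic SMC, a log2 fold change of -1.96 (SE 0.52) with an adjusted p of 0.352 by edgeR. It was called with no filter on low counts (-1.88, adjusted p 0.0410 by edgeR) and with a replicate block (-1.91, adjusted p 0.00187 by edgeR, below). *Egflam* had 48.4 and 27.4 CPM against 17.3 and 13.3 CPM, a log2 fold change of -1.33 (SE 0.45) with an adjusted p of 0.556 by edgeR. For both the intestines did not overlap, as for 17.9% of all genes tested in SMC that lay higher in both small intestinal libraries. Their unadjusted p, like that of *Sntg1*, was under 0.05.

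*Shisa3* had 22.9 and 50.3 CPM in small intestinal SMC and 23.1 and 16.9 CPM in colonic SMC, which overlap (log2 fold change -0.76, SE 0.49, adjusted p 0.903 by edgeR). *Pde2a* had 15.3 and 4.57 CPM against 9.81 and 12.9 CPM, and *Shisa2* 5.10 and 9.14 CPM against 7.45 and 0.402 CPM. Both overlapped between the intestines, and their adjusted p by edgeR was 1.00.

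Too few UMIs were present in SMC to test the other 4 genes. *Sertm1* had 1 and 4 UMIs in small intestinal and 0 in colonic SMC, at least 13.7-fold higher against a floor of 3 counts over the colonic sum. *Plbd1* had 5 and 2 UMIs (12.7 and 9.14 CPM) against 0 and 1 UMI (0 and 0.402 CPM), a ratio of summed counts of 57.7 (7.41 to 2600). Of its 5 UMIs in small intestine replicate 1, 4 came from 1 cell. Its small intestinal levels in SMC were 49.3% and 138% of those in all FB of the same library. *Plcxd3* had 0 and 1 against 0 and 4 UMIs, and *Marc1* 1 and 0 against 0 UMIs.

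The SMC gate of colon was not of 1 kind, and *Shisa3* shows it. Of its 101 UMIs in colonic SMC, 97 came from 76 cells of colonic cluster 12, which is unnamed and has *Kcna1* and *Gpr37l1* among its leading genes. *Shisa3* stood at 278 CPM in these cells. The 932 gated cells of the colonic SMC cluster held 2 UMIs (0.511 CPM). *C1qtnf7* was similarly uneven, since 36 of its 58 UMIs in colonic SMC came from 37 gated cells of the pericyte cluster.

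The comparison was therefore repeated on cells that passed the gate and also lay in the SMC cluster, an alternative chosen after the data were seen (42 and 95 cells of small intestine, 221 and 711 of colon). Gated small intestinal SMC that were kept held medians of 27.5 and 7 FB marker UMIs. Those left out held 2 and 19, with *Sntg1* at 13.5 and 46.2 CPM (2 and 1 UMIs). In the kept cells *Sntg1* had 57.3 and 66.0 CPM against 0 and 0.472 CPM, a log2 fold change of -7.34 with an adjusted p of 0.00475 by edgeR. *Shisa3* had 36.8 and 50.7 CPM against 0 and 0.943 CPM, a log2 fold change of -6.09 with an adjusted p of 0.0201 by edgeR. The colonic cells left out had held nearly all *Shisa3* UMIs of colonic SMC (above), which was known when this set was chosen. The low colonic level of *Shisa3* follows from that choice, so its p is no independent test and nothing is read from it. *Sntg1* and *Shisa3*, 2 of 4 listed genes tested, were called, as were 1.2% of all 8844 genes. *C1qtnf7* had 24.6 and 30.4 CPM against 0.558 and 4.25 CPM. *Egflam* had 28.7 and 25.4 CPM against 6.69 and 6.60 CPM, and *Pde2a* had 0 UMIs in small intestine and 8.92 and 13.2 CPM in colon. Whether *Shisa3* differs between the intestines in SMC thus depended on which cells count as SMC, while for *Sntg1* the call was made either way. With SMC taken from the clusters alone, 5 of 6 listed genes tested were called by edgeR as higher in small intestine (*Sntg1*, *Shisa2*, *Shisa3*, *C1qtnf7* and *Egflam*), where 3.21% of all 9332 genes were called. The small intestinal SMC cluster, however, held 179 cells that were other FB by the gate.

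**Figure D4:**
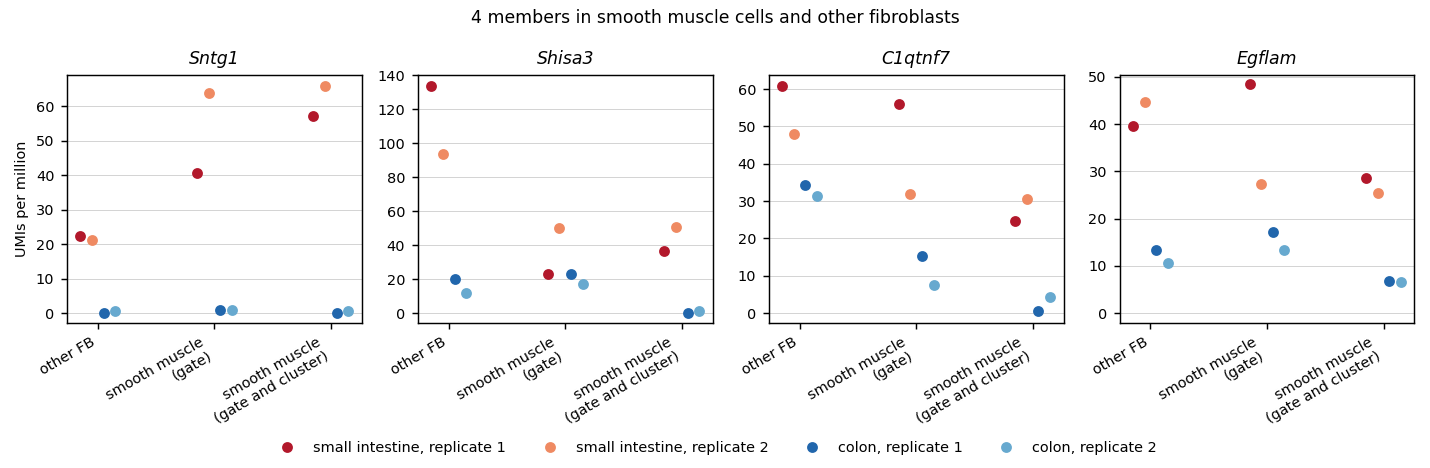
Level (CPM, each panel with its own axis) of *Sntg1*, *Shisa3*, *C1qtnf7* and *Egflam* in other FB, in SMC by the gate and in SMC by gate and cluster, with 1 point per library. *Sntg1* of colon lies at or below 0.804 CPM in all 3, and *Shisa3* of colon falls from 23.1 and 16.9 CPM to 0 and 0.943 CPM when only the SMC cluster is kept.

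Pericytes held 3 of the 10 genes. *Egflam* had 102 and 91.9 CPM in small intestinal and 104 and 72.9 CPM in colonic pericytes, from 26, 2, 47 and 9 UMIs. *C1qtnf7* had 70.6 and 45.9 CPM against 52.9 and 32.4 CPM. *Pde2a* had 23.5 and 45.9 CPM against 26.4 and 32.4 CPM. All 3 overlapped between the intestines, and the other 7 genes had 0 UMIs in pericytes of all 4 libraries.

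By edgeR the log2 fold change in pericytes was -0.09 (SE 0.55) for *Egflam* and -0.50 (SE 0.70) for *C1qtnf7*, each with an adjusted p of 1.00. Thus 0 of 2 genes tested were called, as were 0% of all 3275 genes, and 0 of the 2 had an unadjusted p under 0.05 or were called by DESeq2. The sums were shallow, with 16 cells in small intestine replicate 2. The ratio of summed counts of *C1qtnf7*, small intestine over colon, was 1.41 (0.747 to 2.62), an interval that holds its ratio of 1.89 in FB. That of *Egflam* was 1.04 (0.637 to 1.67), whose upper bound lies under its ratio of 2.89 in FB. These intervals cover counting error only, and the FB ratios come from the contrast that chose the list.

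Endothelium held *Pde2a* and little else of the list. *Pde2a* had 171 CPM in endothelial cells of small intestine replicate 1 (273 UMIs), 0 UMIs in the single cell of replicate 2, and 92.4 and 66.2 CPM in colon (121 and 10 UMIs). The deep small intestinal library thus lay above both colonic ones. The log2 fold change of edgeR was -0.87 (SE 0.94) with an adjusted p of 1.00. With a single cell as the second small intestinal library, that test cannot decide whether the intestines differ. Of the listed genes 1 was tested and 0 were called (0.0824% of all 7278 genes were, in either direction), and 0 had an unadjusted p under 0.05 or were called by DESeq2. *Egflam* had 4 and 0 UMIs against 7 and 1 UMI in endothelium, the most of any other listed gene. The levels of *Pde2a* in all endothelial sums with more than 1 cell exceeded those in FB, where *Pde2a* had 11.3 and 10.8 CPM in small intestine, with 3.34 and 2.45 CPM in colon.

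Within endothelium the level of *Pde2a* differed between clusters. In small intestine it had 307 CPM in cluster 9, led by the lymphatic genes *Ccl21a*, *Mmrn1* and *Lyve1*, and 112 CPM in cluster 7, led by *Plvap* and *Fabp4*. In colon the order was turned, with 40.0 CPM in cluster 13, led by *Ccl21a* and *Lyve1*, and 101 CPM in cluster 9, led by *Fabp4* and *Plvap*. The *Ccl21a* clusters came almost wholly from replicate 1, with 101 and 1 cells in small intestine and 62 and 1 in colon. The endothelial levels of colon and small intestine are therefore averages over kinds of vessel. *Pde2a* reads may also belong to an overlapping gene model, since the identifier of this row carries another name (*Gm45837*) in GENCODE vM21 at chromosome 7.

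Small classes held 2 further listed genes. *Plbd1* had 297 and 399 CPM in immune cells of small intestine, from 52 and 3 UMIs in 37 and 4 cells, and thus a level there above that of PDGFRα-high FB (151 and 76.0 CPM). *Shisa2* had 35.8 and 41.4 CPM in interstitial cells of Cajal of colon (pacemaker cells of the gut wall), from 3 and 4 UMIs in 7 and 26 cells. *Pde2a* had 59.7 and 103 CPM in the same cells. No such cell of small intestine passed the gate.

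Relatives of the listed genes were read in FB, as they had not been chosen for the contrast. They were 45 genes of the same families, such as other C1q and TNF related genes, syntrophins, phosphodiesterases and Shisa genes, with *Marc2*, *Plbd2* and the dystroglycan gene *Dag1*. Of these 40 were in the files and 33 were tested in all FB. By edgeR 0 were called (0.387% of all 13944 genes were called in either direction). An unadjusted p under 0.05 by edgeR was seen for 7 of the 33 and for 1587 of all 13944 genes. With 2 libraries per intestine, the lack of a call does not show equal levels. DESeq2 called 0 as well. The median log2 fold change of the 33 was 0.10, with 3.08e-05 over all genes tested. In PDGFRα-high FB alone 0 of 31 were called, where 1.34% of all genes were.

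The genes outside the list whose levels followed the mean of the listed genes most closely over 25 sums of class and library were *Hoxc6* (Pearson r 0.92), *Lrat* (0.91), *Hoxc4* (0.90), *Hoxc8* (0.90) and *C7* (0.88). The sums share libraries and cells' depth, so these are descriptions. *Lrat* encodes the enzyme that esterifies retinol, *C7* a complement component, and the Hoxc genes transcription factors of body position. In SMC, *Lrat* had 120 and 133 CPM in small intestine and 0 UMIs in colon, and *Hoxc8* had 86.7 and 68.6 CPM against 0 and 0.402 CPM. The SMC sums were among the 25 that chose these genes, so nothing is read from this order.

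Among the listed genes themselves, the closest pair over the same sums was *Plcxd3* with *Marc1* (r 0.92), followed by *Sertm1* with *Sntg1* (0.78) and *Sntg1* with *Shisa3* (0.68). *Shisa2* with *Shisa3* had 0.67 and *Plbd1* with *Marc1* 0.65. *Pde2a* had the lowest likeness to the mean of the list (0.05) and ran against *Shisa3* (-0.45).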

How the data were processed

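Single-cell RNA-seq libraries of sorted small intestinal and colonic stroma were analysed from the UMI count matrices that the authors deposited. Per the labels and the file headers, reads had been processed against mm10 with Cell Ranger 3.0.2 (replicate 1) or 3.1.0 (replicate 2), and the deposited counts carry no normalization. The 10 genes, the lists of markers and relatives, and the tests were chosen with earlier results of these data known. The numbers of markers that a gate needed and the rule for naming clusters were set after marker distributions and clusters had been seen.

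Barcodes under 500 genes or 1000 UMIs, or over 10% mitochondrial UMIs, were dropped, as were doublets that scrublet (scanpy 1.11.5) marked in each library (6, 913, 32 and 580 barcodes, of which the first is 0.327% of its library). Clusters were computed per intestine with Seurat 5.3.0 (anchor integration over 2000 features, 30 components, resolution 0.5). Clusters took the name of the marker list with the largest mean log2 fold over other cells (pseudocount 10 CPM) only where score and leading genes bore it out. Clusters with a median of at least 4 FB markers per cell and no clear other name became other FB. Those with a low score, or with leading genes that fitted another list as well, stayed unnamed. UMI counts were summed per class and library and tested with edgeR 4.0.16 (filterByExpr, TMM, glmQLFit with robust estimation, glmQLFTest) over all genes, with calls at an adjusted p under 0.05 where the log2 fold change passed 1.5 in size. Shares were taken after thinning to 2000 UMIs per cell, with exact 95% intervals. On simulated counts 76% of genes changed by a log2 fold change of 2 and 95% of those changed by 4 were recovered in SMC (9464 genes), and 67% and 85% in pericytes (2728 genes). The simulation gave every gene the same fixed dispersion and same-numbered libraries no shared deviation. These recoveries are therefore not the power reached on the real counts.

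All 10 genes are named, with the 5 genes outside the list of highest Pearson r with its mean profile over sums of at least 20 cells, computed on log2(CPM + 10), and any relative called. Promoter bases are from RefSeq. Alternatives were RLE normalization, DESeq2 1.42.0, no filter on low counts, a stricter gate, classes from clusters, doublets kept, a replicate block, no thinning and each library left out. Some leading genes of clusters are not reported here.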

Additional observations from a re-analysis of the deposited data

Results flagged for a closer look

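*C1qtnf7* went in different directions in different classes of the same libraries. The difference of mean levels, colon minus small intestine on the log2(CPM + 1) scale, was -3.70 in PDGFRα-high FB, -0.71 in other FB and -1.85 in SMC, with both small intestinal libraries above both colonic ones in each. In CD81+ FB it was 0.45, with both colonic libraries above both small intestinal ones, as for 25.7% of all 11262 genes tested there. The fitted log2 fold change in CD81+ FB was 0.33 (SE 0.26). The difference between classes was not tested.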

How the results depend on the processing

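In SMC, 1 listed gene (*Sntg1*) was called in the analysis reported, with RLE normalization, with DESeq2, under the stricter gate and with doublets kept. With no filter on low counts 2 were called, *C1qtnf7* joining at -1.88 (adjusted p 0.0410 by edgeR). Cells in both the gate and the cluster gave 2, *Sntg1* and *Shisa3*, the latter on cells chosen after its colonic UMIs were seen. Classes from clusters gave 5 (0 of them higher in colon), where 179 cells of the small intestinal SMC cluster were other FB by the gate. With single libraries left out the number called in SMC ranged from 0 to 1. A lone library was then assumed to vary like the other intestine. The count of all genes called in SMC was 18, but 203 with no filter, 94 with DESeq2, 300 with classes from clusters, 106 in the gate and cluster, and 10 to 32 with 1 library left out. In FB it was 54, but 269 with no filter, 558 with DESeq2 and 0 to 85 with 1 library left out.

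Replicate numbers pair samples only by number in the labels, though the Cell Ranger version went with the number too. Same-numbered libraries deviated together (correlations over genes of 0.77 in FB, 0.49 in SMC and 0.34 in pericytes). With the replicate block as a term, edgeR called 2 listed genes in SMC, *Sntg1* at -5.83 (adjusted p 1.69e-08) and *C1qtnf7* at -1.91 (adjusted p 0.00187), among 337 genes. *Egflam* in SMC had -1.32 (adjusted p 0.0434 by edgeR), short of the fold limit. The block called 0 listed genes in pericytes (84 of all 3275 genes were called) and 0 in endothelial cells (72 of 7278). It called 0 relatives in FB, where it called 854 of all 13944 genes.

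Directions of differences that were not called turned for *Pde2a* in SMC without small intestine replicate 2 (-0.41, up to 1.39 with another library left out), for *Pde2a* in endothelial cells without small intestine replicate 1 (8.33, against the single cell that remains, and down to -1.19 with another left out), and for *Egflam* in pericytes without small intestine replicate 1 (0.27), without colon replicate 2 (0.07) and under the stricter gate (0.47), with -0.39 at the lowest. The median difference of the 10 genes in FB was -2.54, and -2.72 to -2.13 with 1 library left out. Without thinning, the median share of FB with a UMI of a listed gene was 8.57% and 4.62% in the small intestinal libraries, in place of 2.95% and 3.26%. In pericytes 7 genes had 0 UMIs and in endothelium 1 gene could be tested, and whether depth accounts for this was not tested. The causes of these shifts were not tested.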
